A study of Mus musculus with 4 samples.

Results

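TaqMan assays for microRNAs of mesenchyme and cartilage, mmu-miR-199a-5p, mmu-miR-199a-3p, mmu-miR-214 and mmu-miR-140, were followed in whole mouse embryos with and without estrogen receptor alpha. They were chosen by name from the 375 microRNA assays read in all samples, as every assay of miR-199a, miR-199b, miR-214 or miR-140, and 4 assays met this; no assay carried the name of miR-199b. The samples were total RNA of C57BL/6 embryos at E18.5. There were 2 wild-type samples and 2 with the genotype ER-alpha KO, a knockout of estrogen receptor alpha (gene Esr1). The allele, the litter, the sex and whether a sample pooled embryos are not given in the sources used here, so p-values measure only how these samples vary, which may in part be technical. Each well gave a threshold cycle (Ct), the PCR cycle at which signal appears: the earlier the cycle, the more RNA, and a step of 1 cycle is read here as 1 log2 unit.

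A microRNA is cut from a hairpin precursor whose 5p and 3p arms can each yield a mature strand of about the same size. The strand is loaded into an Argonaute protein and pairs with messenger RNAs mainly through its seed, bases 2 to 8. The miR-214 hairpin and 1 of the miR-199a hairpins, Mir199a-2, are carried by a noncoding transcript made in embryonic mesenchyme, Dnm3os, which is needed for normal skeletal growth. The miR-140 hairpin lies in the ubiquitin ligase gene Wwp2 and is known as a cartilage microRNA of the growth plate.

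The mature sequences are shown first because they set what each assay can tell apart. They are from RefSeq on GRCm38.p6, 5′ to 3′, with the seed in capitals.
mmu-miR-199a-5p: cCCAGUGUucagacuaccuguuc
mmu-miR-199a-3p: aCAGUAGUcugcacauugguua
mmu-miR-199b-3p: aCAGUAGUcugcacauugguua
mmu-miR-214-3p: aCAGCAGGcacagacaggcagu
The miR-199a-3p and miR-199b-3p sequences are identical at all 22 bases, so the 3p assay reads the product of 3 hairpins, Mir199a-1, Mir199a-2 and Mir199b. The mature miR-199a-5p sequence is listed for 2 hairpins, Mir199a-1 and Mir199a-2. The miR-199a-3p and miR-214-3p strands start with the same 4 bases and match at 5 of the 7 seed positions, yet their seeds differ. Among the 1679 mature microRNA names in the RefSeq table, the miR-199a-5p seed was shared with 0 others. The miR-199a-3p seed was shared there with miR-199b-3p alone and the miR-214-3p seed with miR-761 alone. Neither miR-199b-3p nor miR-761 was read as an assay of its own. The Mir199b hairpin also holds the bases of the miR-199a-5p seed. RefSeq lists no mature 5p strand for Mir199b, so that arm was not counted. The names mmu-miR-214 and mmu-miR-140 give no arm; in the older naming the plain name miR-214 stands for the 3p strand.

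The hairpins are shown because the arm comparison and the shared transcript rest on them. Capitals mark the mature strands that RefSeq lists.
Mir199a-2 (chr1:162217814-162217923, plus strand): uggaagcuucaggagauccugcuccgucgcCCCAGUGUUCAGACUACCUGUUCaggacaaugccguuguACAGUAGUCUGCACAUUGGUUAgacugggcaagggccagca
Mir214 (chr1:162223368-162223477, plus strand): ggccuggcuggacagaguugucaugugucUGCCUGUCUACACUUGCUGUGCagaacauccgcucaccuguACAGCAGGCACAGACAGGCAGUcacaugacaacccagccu
Mir140 (chr8:107551244-107551313, plus strand): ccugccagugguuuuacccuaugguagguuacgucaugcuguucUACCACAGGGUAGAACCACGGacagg
Mir199a-2 and Mir214 lie 5444 bases apart inside the annotated interval of Dnm3os, which itself sits within Dnm3. Mir199a-1 lies within the interval of Dnm2 and Mir199b within that of Dnm1, so all 3 miR-199 hairpins fall within the intervals of dynamin genes. Mir140 lies within the interval of Wwp2. The strand of the hairpins was not compared with that of these genes, so an interval does not show which transcript carries a hairpin. For miR-140 RefSeq marks the 3p strand here, and no mature sequence is tied to the assay.

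All 4 assays were detected, at a Ct of 35 or lower, in all 4 samples. Between 254 and 290 of the 375 microRNAs were detected per sample and 229 in every sample. These 229 were tested, each sample being centred on their median Ct, so that a level is given in log2 units above or below the median microRNA of that sample. Wild-type replicate 1 stood apart: its Ct values correlated with those of the other samples at r = 0.939 to 0.954 over the 229 assays, and the other 3 samples with each other at 0.978 to 0.989. After a constant of 0.273 was taken off, 89.9% of its amplified microRNA readings were no more than 0.1 cycle from a whole number, against 21.0% to 26.5% in the other samples. The 4 assays described here were all among them, the farthest at 0.048 cycles. Results are therefore given with and without that sample. The 20 marker assays read for striated muscle, endothelium, neural tissue, epithelium, liver and blood were all detected in every sample. In such bulk RNA, fewer cells of a type and less RNA per cell cannot be told apart.

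The relative levels of miR-140, miR-199a-3p and miR-214 differed between genotypes by 0.33 to 0.58 log2 units, and miR-199a-5p was low in 3 samples and higher in 1 wild-type sample. Of the 4 assays, 0 passed the test between genotypes. In every sample the order was miR-140, miR-199a-3p, miR-214 and miR-199a-5p, an order that sets assays of unknown efficiency side by side. By mean level over the samples they ranked 11, 18, 72 and 216 among the 229 microRNAs.

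The 5p strand, miR-199a-5p, came up at Ct 31.24 in wild-type replicate 1, 32.74 in wild-type replicate 2, 33.51 in ER-alpha KO replicate 1 and 33.05 in ER-alpha KO replicate 2. In relative level the wild-type samples stood at -2.002 and -5.378, the knockout samples at -5.315 and -5.229 (replicates 1 and 2). Wild-type replicate 1 alone was high, and wild-type replicate 2 lay just below both knockout samples, so the groups overlapped. The mean was -3.69 ± 2.39 in wild-type and -5.27 ± 0.06 in ER-alpha KO (SD, n = 2 each), a log2 fold change of -1.58 with a 95% interval of -2.83 to -0.33 in limma's fit. The limma adjusted p was 0.438 and the unadjusted p 0.0134; unadjusted p-values under 0.05 with a lower level in knockout were given to 3.06% of all tested microRNAs. That p used a spread shared by all assays, a standard error of 0.64, whereas with the assay's own variance the standard error was 1.69 and the adjusted p of the limma fit 0.802. Without wild-type replicate 1 the log2 fold change was -0.23, or 0.11 when the same 229 assays and centring were kept, so its size rested on that sample, and its direction without that sample depended on the set of assays used for centring.

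The 3p strand, miR-199a-3p, came up at Ct 25.27 in wild-type replicate 1, 23.22 in its replicate 2, and 23.35 and 23.39 in the knockout samples. The last 3 values lay within 0.17 cycles of each other. The wild-type levels were 3.96 and 4.15, the knockout levels 4.84 and 4.44. Both knockout samples lay above both wild-type samples. The means were 4.06 ± 0.13 and 4.64 ± 0.28 (SD, n = 2 each), and the log2 fold change of 0.58 had a 95% interval of -0.67 to 1.83 and a limma adjusted p of 0.939. Without wild-type replicate 1 it was 0.16, or 0.49 with the same assays and centring.

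miR-214, whose hairpin shares the Dnm3os transcript with Mir199a-2, came up at Ct 27.25 and 26.02 in the wild-type samples, against 25.92 and 26.11 in those with the knockout. Relative levels were 1.98 and 1.34 in wild-type replicates 1 and 2, against 2.27 and 1.71 in the knockout. The samples of the groups interleaved, with wild-type replicate 2 lowest and ER-alpha KO replicate 1 highest. The means were 1.66 ± 0.45 and 1.99 ± 0.39 (SD, n = 2 each), and the log2 fold change was 0.33 (95% interval -0.92 to 1.58, limma adjusted p = 0.939). It was 0.32 without wild-type replicate 1, or 0.65 with the same assays and centring.

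miR-140, the cartilage microRNA, had the earliest Ct of the 4, with 24.23 and 22.11 in the wild-type samples, then 22.17 and 22.56 in those with the knockout. Wild-type levels were 5.01 and 5.25, knockout levels 6.02 and 5.27. The knockout samples were the upper pair, but the lower of them exceeded the upper wild-type sample by less than the gap between the wild-type samples. The means were 5.13 ± 0.17 and 5.64 ± 0.53 (SD, n = 2 each), with a log2 fold change of 0.51 (95% interval -0.74 to 1.77, limma adjusted p = 0.939). Without wild-type replicate 1 this value was 0.06, or 0.39 with the same assays and centring.

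**Figure D1:**
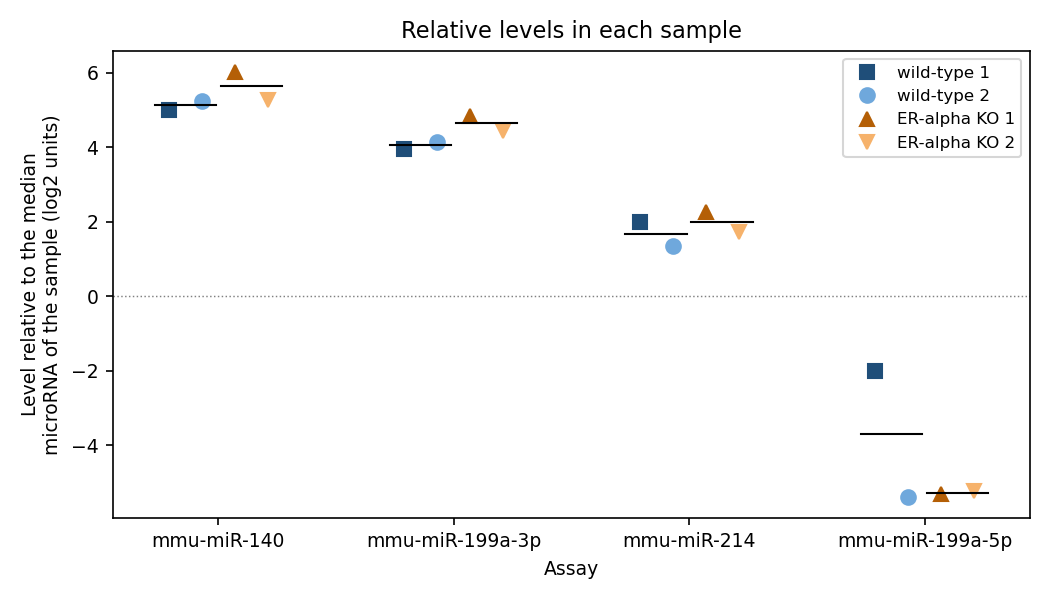
Levels of the 4 assays in each sample, in log2 units relative to the median microRNA of that sample; points are single samples and black lines are means of the 2 samples per genotype. The miR-199a-5p point of wild-type replicate 1 (-2.002) stands above the other 3 (-5.378 to -5.229). For the other assays the samples span less: 5.01 to 6.02 for miR-140, 3.96 to 4.84 for miR-199a-3p and 1.34 to 2.27 for miR-214.

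Over all 229 microRNAs, 0 (0%) passed a limma adjusted p of 0.05, 10 (4.37%) had an unadjusted p under 0.05, and with ordinary variances 0 passed and 9 had an unadjusted p under 0.05. Both knockout samples were above both wild-type samples for 2 of the 4 assays, miR-199a-3p and miR-140, and for 33.2% of all tested microRNAs. Both were below for 0 of the 4 and for 6.11% of all. The median log2 fold change of all 229 was 0.26, and 3 of the 4 assays lay above it, with a median of 0.42 for the 4. Scaled to the 5 small-RNA controls of the panel, the median of all assays was 0.54 and the fold changes were 0.86 for miR-199a-3p, 0.61 for miR-214, 0.79 for miR-140 and -1.30 for miR-199a-5p. This scaling moves all assays by the same amount, so the distance of each assay from the median of all was kept. Without wild-type replicate 1, 241 microRNAs were tested and the median of all 229 earlier ones was -0.03. With the same 229 assays and centring it was 0.30, and the values were then 0.49 for miR-199a-3p, 0.65 for miR-214 and 0.39 for miR-140.

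The difference between 2 assays within a sample does not depend on centring on a median or on controls. The miR-199a-3p level exceeded that of miR-199a-5p by 5.97 log2 units in wild-type replicate 1, 9.53 in wild-type replicate 2, 10.15 in ER-alpha KO replicate 1 and 9.67 in ER-alpha KO replicate 2. The last 3 samples lay close together, and wild-type replicate 1 was 3.82 log2 units below their mean. The knockout samples were the 2 highest. Means were 7.75 ± 2.52 in wild-type and 9.91 ± 0.34 in ER-alpha KO (SD, n = 2 each), a difference of 2.16, and the two-sided exact permutation test gave p = 0.333, the smallest that 2 against 2 samples allow (0.5 after Benjamini-Hochberg adjustment over the 3 differences tested). Against wild-type replicate 2 alone the knockout mean was 0.38 higher, less than the gap between the knockout samples themselves.

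Both arms were tested for 15 hairpins of mouse name, and their arm differences give a scale for that of miR-199a. For miR-199a the assays do not read 1 hairpin alone. The 3p assay reads the product of 3 hairpins, Mir199b included, and the 5p sequence is listed for 2. The change between genotypes was larger for miR-199a (2.16) than for any of the other 14, whose absolute changes had a median of 0.58 and a maximum of 1.48, for miR-324. The departure of wild-type replicate 1 from the other samples was also the widest for miR-199a, at 3.82 against a median of 1.05 and a maximum of 2.56, for miR-384. Among the other 3 samples the miR-199a arm difference spanned 0.63 log2 units, which ranked 11 of 15 from the widest. The samples of the 2 genotypes did not overlap in arm difference for 4 of the 15 hairpins, miR-199a among them. These are descriptions over hairpins, chosen with the values known, and no test was made.

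**Figure D2:**
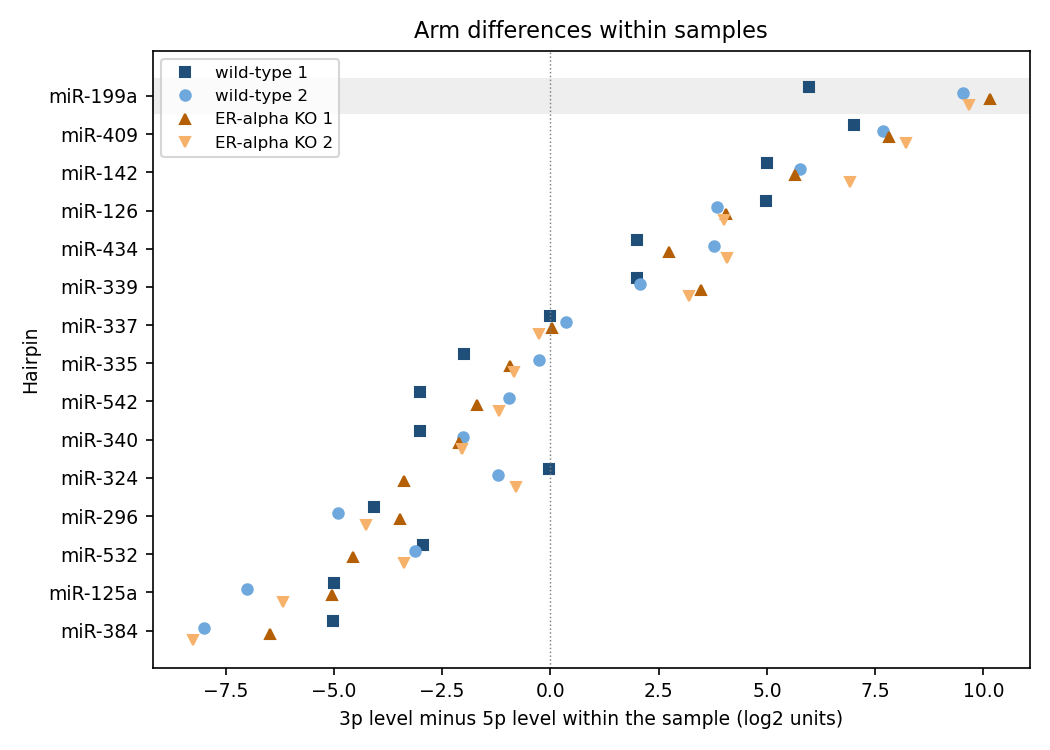
Level of the 3p arm minus level of the 5p arm within each sample, in log2 units, for the 15 hairpins with both arms tested; each point is 1 sample and the grey band marks miR-199a. For miR-199a wild-type replicate 1 (5.97) lies far to the left of the other 3 samples (9.53 to 10.15).

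The distance between miR-199a-3p and miR-214 varied less than that between the miR-199a arms. The 3p strand exceeded miR-214 by 1.98 and 2.81 log2 units in the wild-type samples and by 2.57 and 2.72 in the knockout samples. The genotype means differed by 0.25, with the wild-type samples on either side of both knockout samples (two-sided exact permutation p = 1, adjusted p = 1). Without wild-type replicate 1 the difference was -0.16, a change of direction. The 5p strand lay below miR-214 in all samples, with differences of -3.98 and -6.72 in the wild-type samples and -7.58 and -6.94 in the knockout samples. Here the genotype difference was -1.91 (two-sided exact permutation p = 0.333, adjusted 0.5) and -0.54 without wild-type replicate 1. miR-140 exceeded miR-199a-3p by 1.05, 1.10, 1.18 and 0.83 log2 units, wild-type replicates first; here wild-type replicate 1 lay within the range of the other samples. It did not for miR-140 minus miR-214, which was 3.03 in that sample against 3.91, 3.75 and 3.55 in the others. The Ct values of wild-type replicate 1 lay near whole cycles. Gaps of less than 1 cycle between its differences and those of other samples may therefore be below its resolution.

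By raw Ct, wild-type replicate 1 was late as a whole, its median over the tested microRNAs being 1.44 cycles later than the mean of the other sample medians. It was later than the mean of the other samples by 1.95 cycles for miR-199a-3p, 1.94 for miR-140 and 1.23 for miR-214. For miR-199a-5p it was earlier, by 1.86 cycles, and only 5 of the 229 assays (2.18%) had an earlier Ct in that sample than in each of the others. In relative level miR-199a-5p was 3.31 log2 units above the mean of the other samples, rank 3 of 229 from the highest. miR-214 was 0.21 above it (rank 84), while miR-199a-3p was at -0.51 (rank 164) and miR-140 at -0.50 (rank 163). A tested assay had to reach a Ct of 35 in wild-type replicate 1 as well, so assays that were late in the other samples and later still in that one are not among the 229.

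**Figure D3:**
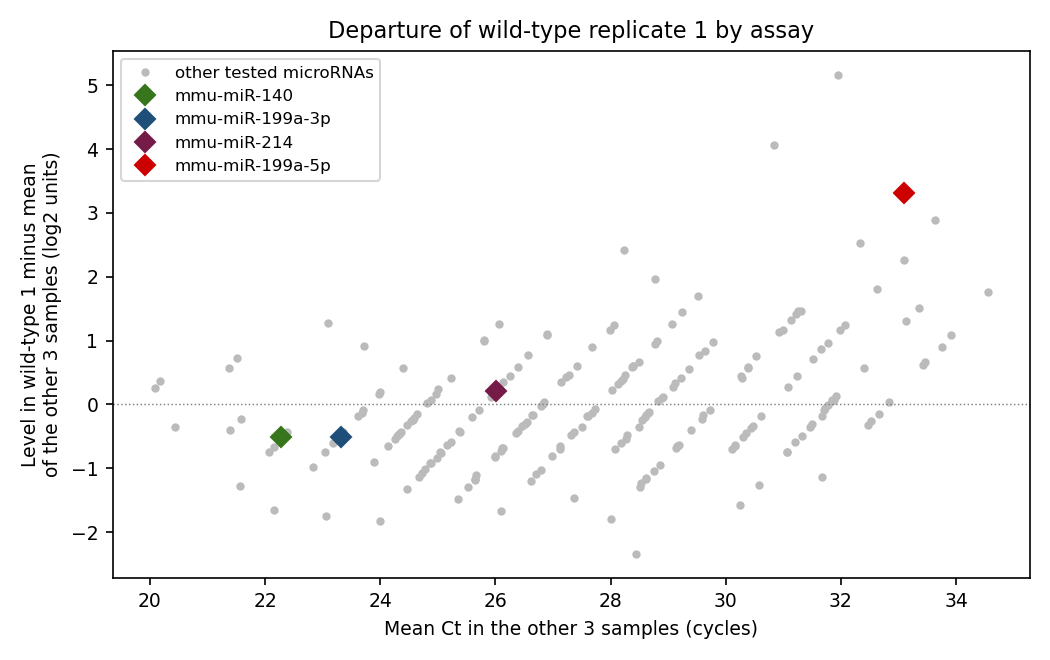
Relative level in wild-type replicate 1 minus the mean of the other 3 samples (log2 units) against the mean Ct of those 3 samples, for 229 microRNAs; grey points are other assays and diamonds the 4 assays described. miR-199a-5p (3.31) ranks 3 of 229 and the other 3 diamonds lie near 0 (-0.51 to 0.21); the detection limit of 35 removes assays at the lower right, and the slanted rows of points come from the near whole-cycle Ct values of wild-type replicate 1.

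The microRNAs with the most similar profile were found by the root-mean-square difference between profiles over the 4 samples, each profile taken as deviations from its own mean. For miR-199a-5p they were mmu-miR-181c (0.32 log2 units), rno-miR-532-5p (0.55) and mmu-miR-103 (0.64), against a median of 1.53 over all assays. All 3 were highest in wild-type replicate 1, as miR-199a-5p was. For miR-199a-3p they were rno-miR-1 (0.02), mmu-miR-31 (0.04) and mmu-miR-409-3p (0.04), with a median of 0.38 over all assays. For miR-214 they were mmu-miR-194 (0.06), mmu-miR-137 (0.06) and mmu-miR-136 (0.07), and for miR-140 mmu-miR-192 (0.01), mmu-miR-152 (0.05) and rno-miR-345-3p (0.05). The 4 assays were not each other's nearest. For miR-199a-3p, miR-140 stood at rank 31 with 0.13, miR-214 at rank 103 with 0.32 and its own partner arm at rank 225 with 1.67. With 4 samples these likenesses are descriptions only.

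Other microRNAs of connective tissue and skeleton did not pass the test either. The list held miR-21, miR-22, miR-29a, miR-29b, miR-29c, miR-143, miR-145, miR-204, miR-335, miR-455 and miR-675, which the panel read with 12 assays, none of them for miR-22. Of these, 9 were tested, and 0 passed a limma adjusted p of 0.05 in either direction. An unadjusted limma p under 0.05 was given to 0 of them, beside 4.37% of all tested microRNAs. The median log2 fold change was 0.23, beside 0.26 for all tested microRNAs, and without wild-type replicate 1 it was -0.16, beside -0.03. With the same assays and centring kept it was 0.18, beside 0.30, so the sign without that sample depended on the centring. For 0 of the 9 did both knockout samples lie on 1 side of both wild-type samples. Over all tested microRNAs both lay above for 33.2% and both below for 6.11%.

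The highest fold changes of that list were those of mmu-miR-335-3p and mmu-miR-29c. The miR-335 hairpin lies in the mesoderm gene Mest, and miR-335-3p stood at -0.02 and 1.13 in the wild-type samples and at 1.29 and 1.13 in the knockout samples, with a log2 fold change of 0.655. Without wild-type replicate 1 that was -0.25, or 0.08 with the same assays and centring. The level in wild-type replicate 1 was low and the other 3 samples were level. miR-29c, of a family that targets collagen messages, stood at -2.04 and -1.59 in wild-type against -0.95 and -1.65 in ER-alpha KO (log2 fold change 0.51, and without wild-type replicate 1 either -0.05 or, with the same assays and centring, 0.28). The lowest were mmu-miR-21 (-0.33) and mmu-miR-675-3p (-0.31), the latter made from the imprinted transcript H19, with values of -0.16 and -0.46 once wild-type replicate 1 was left out, or 0.18 and -0.13 with the same assays and centring. The other 3 assays were not detected in every sample. miR-455, another cartilage microRNA, had Ct 33.22 in wild-type replicate 1, against 35.35, 36.67 and 36.20 elsewhere. miR-29b had Ct 36.26, 35.05, 34.86 and 39.16 in the same order of samples, and mmu-miR-675-5p amplified in 0 samples.

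For markers of other cell types there were 6 lists. With all samples, list medians of log2 fold change ran from -0.23 for neural microRNAs (3 assays) to 0.78 for liver (miR-122, 1 assay). They were 0.46 for striated muscle, 0.43 for endothelium, 0.32 for epithelium and 0.38 for blood. Without wild-type replicate 1, miR-122 was at 0.28, or 0.61 with the same assays and centring. The blood assays were then at -0.41 (miR-451), -0.19 (miR-142-3p), -0.70 (miR-142-5p) and 0.06 (miR-223). With the same assays and centring they were at -0.08, 0.145, -0.37 and 0.39. In these settings, in that order, neural assays were at -0.62 and -0.29 (miR-124), 0.02 and 0.35 (miR-9), and -0.35 and -0.02 (miR-128a). Those of striated muscle were at -0.145 and 0.19 (mmu-miR-1), 0.11 and 0.44 (rno-miR-1), 0.595 and 0.93 (miR-133a), and 0.17 and 0.50 (miR-133b). Endothelial assays were at 0.31 and 0.64 (miR-126-3p), and 0.12 and 0.45 (miR-126-5p). Epithelial assays ran from -0.12 to 0.13, and from 0.21 to 0.46. The part of these cell types in the values of miR-199a, miR-214 and miR-140 was not tested.

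**Figure D4:**
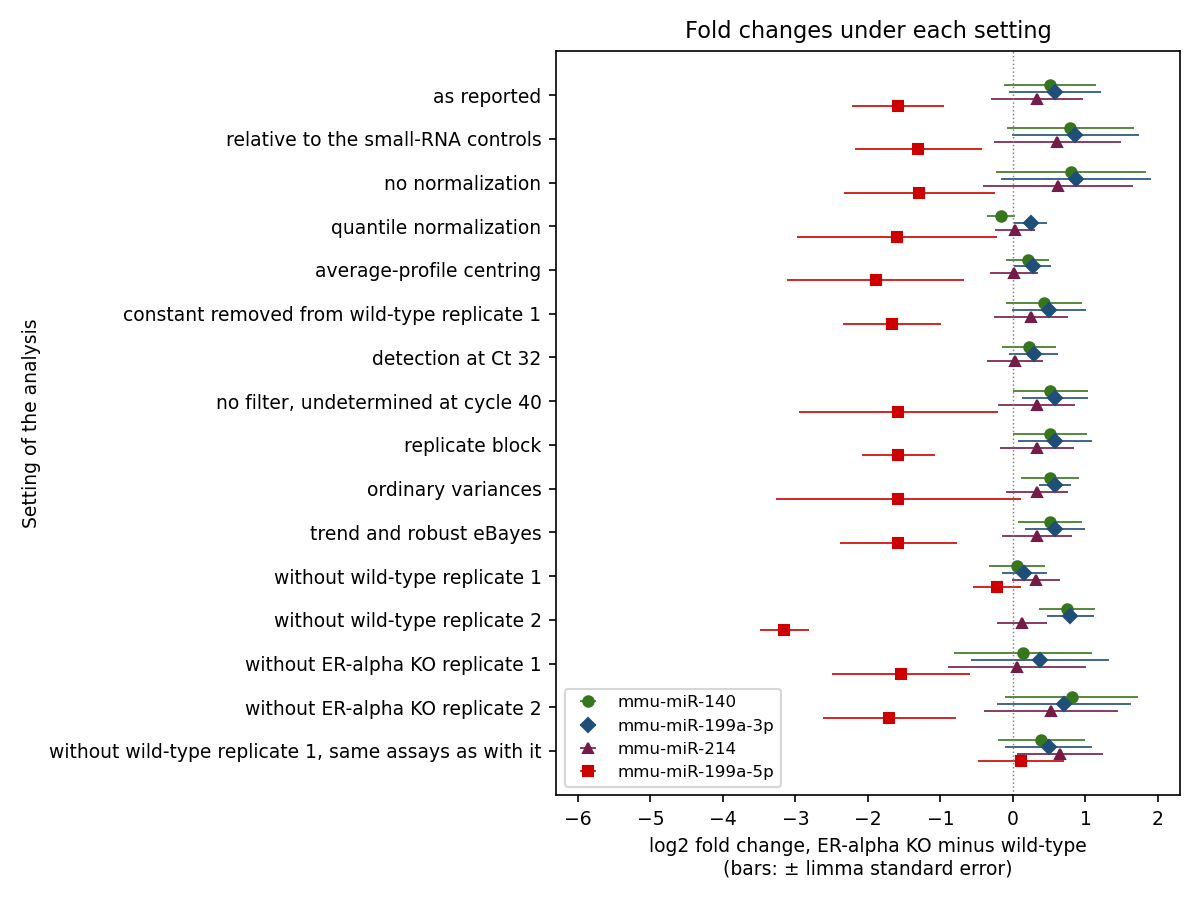
log2 fold change of ER-alpha KO minus wild-type for the 4 assays under each setting of the analysis, with bars of ± 1 standard error from limma. miR-199a-5p has no value at a Ct limit of 32 and lies left of 0 in the other settings shown but the one that leaves out wild-type replicate 1 and keeps the same assays (0.11), and miR-140 crosses to -0.16 with quantile normalization.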

How the data were processed

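The TaqMan PCR ran for 40 cycles on a 7900HT instrument, per the labels. The deposited values are Ct per well, per the file headers; the threshold, baseline and any normalization are not given in the sources used here. In wild-type replicate 1, 39 assays stand at 40.3 and were treated as not amplified; the constant of 0.273 found in 380 of its wells (all but U6) was kept. The 4 U6 wells were averaged. A plant control read in that sample only was left out.

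Levels were minus the centred Ct, and the genotypes were set against each other in limma 3.58.1 (R 4.3.3; lmFit, eBayes, two-sided), with Benjamini-Hochberg adjustment over 229 microRNAs; the estimated prior made all assays share 1 variance. Within-sample differences were compared by exact permutation with scipy 1.17.1. Tables were handled with pandas 2.3.3 and plots drawn with matplotlib 3.10.9. The limma procedure was tested on simulated data with the same spread for all assays of a sample, so unequal variances were not covered. Sequences came from RefSeq tables on GRCm38.p6, with 2 assays matched by name and 2 by hairpin.

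The assays, lists and tests were chosen with earlier results of these data known. Named microRNAs were the 4 assays, the 2 highest and 2 lowest fold changes of the connective tissue and skeleton list, the 3 nearest profiles of each assay and the controls (MammU6, U87, Y1, snoRNA135 and snoRNA202). Also named were the other microRNAs of that list, the marker assays and microRNAs that share a seed. So were the other hairpins with the largest arm values and microRNAs that passed in an alternative.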

Additional observations from a re-analysis of the deposited data

How the results depend on the processing

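PCR on 2 samples per genotype limits the precision. Among alternatives that kept all samples, the log2 fold change of miR-199a-5p ran from -1.89 to -1.29, that of miR-199a-3p from 0.24 to 0.87, that of miR-214 from 0.02 to 0.62 and that of miR-140 from -0.16 to 0.80, the negative value with quantile normalization; the cause was not tested. At a Ct limit of 32 miR-199a-5p was not detected in every sample and gave no value. Leaving out 1 sample at a time gave -3.15 to -0.23 for miR-199a-5p, 0.16 to 0.79 for miR-199a-3p, 0.05 to 0.53 for miR-214 and 0.06 to 0.81 for miR-140. The arm difference between genotypes then ran from 0.38 to 3.94, miR-199a-3p minus miR-214 from -0.16 (without wild-type replicate 1) to 0.67, and miR-199a-5p minus miR-214 from -3.28 to -0.54. With all samples and quantile normalization the arm difference was 1.845 (two-sided exact permutation p = 0.667). There miR-199a-5p minus miR-214 was -1.623 (two-sided exact permutation p = 0.667). Leaving out a sample leaves 1 in its group, assumed to vary like the other group. An alternative chosen after seeing the data, without wild-type replicate 1 but with the same assays, gave 0.11 for miR-199a-5p, and 1 microRNA, mmu-miR-687, then passed. With the replicate number as a replicate block 1 passed, mmu-miR-324-3p, and the limma adjusted p of miR-199a-5p was 0.0651; its fold change stayed at -1.58, as a balanced block leaves it. Same-numbered samples deviated together (r = 0.37 over assays), but the labels give no meaning to the number, and they were not treated as pairs. The other alternatives called 0.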
